A study of Mus musculus with 2 samples.

Results

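Small Cajal body RNAs (scaRNAs), spliceosomal RNAs and a few housekeeping RNAs of like size were followed in gastrocnemius muscle by total RNA-seq. The members were all genes of GENCODE M21 biotype scaRNA, all genes whose symbol starts with Rnu, and Rn7sk, Rn7s1, Rn7s2, Rpph1, Rmrp, Terc, Rny1, Rny3 and Vaultrc5. They came to 83 of 55536 annotated genes and carried 72 symbols, because 11 symbols had more than 1 row. Rows of one symbol were summed, since such copies share reads. The rule uses the annotation and no measured value, but it was set with earlier results of these data known. By role, 46 symbols were scaRNAs, 8 were RNAs of the major spliceosome, 2 of the minor spliceosome, 6 were U3 and another nucleolar RNA, 1 was the histone pre-mRNA processing RNA U7 and 9 were other housekeeping RNAs. No member symbol stood for U4, U4atac or U6atac.

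The study held 1 group, gastrocnemius of female B6CASTF1/J mice aged 4 days, with 2 libraries called biological replicates 1 and 2 and made from animals numbered 3 and 4. B6CASTF1/J animals are hybrids of C57BL/6J and CAST/EiJ, and reads of both parental genomes were counted on the C57BL/6J reference. Each library was made from 300 ng of RNA with ERCC spike-ins. Both samples carry a single donor record, so nothing in the labels says whether the animals share a litter, and the spread between them is the only error given (SD, n = 2). No condition was compared and no test was made. All ratios are replicate 1 over replicate 2.

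Spliceosomal RNAs are the RNA cores of the particles that remove introns. U1 pairs with the 5′ splice site, U2 with the branch site, and U4, U5 and U6 join as a tri-particle, while U11 and U12 take the places of U1 and U2 on a small class of introns. Most of them carry a ring of Sm proteins on a uridine-rich site. scaRNAs stay in Cajal bodies and guide 2′-O-methylation (C/D type) or pseudouridylation (H/ACA type) of the spliceosomal RNAs, and most are cut from the introns of host genes. The 7SL RNA is the core of the signal recognition particle that takes secretory proteins to the endoplasmic reticulum, 7SK holds the elongation kinase P-TEFb inactive, and the RNase P and RNase MRP RNAs process tRNA and rRNA precursors.

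Sequences are from the GENCODE M21 transcripts on mm10, in DNA letters. The 7SK RNA is shown because it was among the highest members and its hairpin is well known. Of Rn7sk, which is 331 bases long, the opening 100 bases are given (chr9:78175534-78175633, minus strand), where capitals mark every GATC. Hexim proteins are known to bind GATC elements of the 7SK hairpin, but not every marked copy need be part of that site. At least 3 GATC, read on the transcript strand, stood in 78 of 3526 small RNA sequences (2.21%). Besides Rn7sk, the members among these were Rn7s1, Rn7s2, Scarna2 and Gm27414.
Rn7sk: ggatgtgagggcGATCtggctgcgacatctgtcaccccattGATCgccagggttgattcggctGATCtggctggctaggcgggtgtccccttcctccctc

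Near-identical copies set how far a single U1 or U2 gene could be measured. Rnu1a1 (chr11:87422867-87423030, plus) is given in full, and in Rnu1b1 (chr3:96359953-96360117, minus) and Rnu1b6 (chr3:96460024-96460189, minus) capitals mark the bases that differ from it in a global alignment. Rnu1b1 had 6 substitutions and 1 added base, and Rnu1b6 had 6 substitutions and 2 added bases. Rnu2-10 (chr11:101658238-101658428, plus) is followed by Gm23444 (chr11:83271498-83271688, plus), with 1 substitution, and Gm24497 (chr1:72244213-72244403, plus), with 2, both genes of biotype snRNA outside the rule.
Rnu1a1: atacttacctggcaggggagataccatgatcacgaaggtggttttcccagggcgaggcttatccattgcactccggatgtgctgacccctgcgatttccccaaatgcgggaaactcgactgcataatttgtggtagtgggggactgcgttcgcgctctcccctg
Rnu1b1: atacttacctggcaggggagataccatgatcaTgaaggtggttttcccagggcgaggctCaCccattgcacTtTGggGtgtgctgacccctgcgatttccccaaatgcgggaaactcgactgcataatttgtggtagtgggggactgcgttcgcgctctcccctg
Rnu1b6: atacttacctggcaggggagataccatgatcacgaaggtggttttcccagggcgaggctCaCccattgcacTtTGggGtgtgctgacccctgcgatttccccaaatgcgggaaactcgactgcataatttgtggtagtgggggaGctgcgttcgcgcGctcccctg
Rnu2-10: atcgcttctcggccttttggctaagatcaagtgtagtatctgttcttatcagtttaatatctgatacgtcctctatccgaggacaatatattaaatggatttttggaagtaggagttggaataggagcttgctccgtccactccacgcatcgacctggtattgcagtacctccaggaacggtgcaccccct
Gm23444: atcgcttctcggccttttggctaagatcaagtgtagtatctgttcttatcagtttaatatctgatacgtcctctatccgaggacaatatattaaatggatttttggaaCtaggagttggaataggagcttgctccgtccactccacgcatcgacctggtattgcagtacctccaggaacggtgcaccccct
Gm24497: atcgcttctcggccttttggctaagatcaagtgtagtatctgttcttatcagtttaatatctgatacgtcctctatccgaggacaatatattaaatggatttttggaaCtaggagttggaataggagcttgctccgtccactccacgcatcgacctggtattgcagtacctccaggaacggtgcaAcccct

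U11, U12 and U7 are shown because they are the rare particles among the members, and their Sm sites are in capitals. Rnu11 lies at chr4:132270080-132270213 (minus), Rnu12 at chr15:83149644-83149794 (plus) and Rnu7 at chr6:124741225-124741286 (minus). ATTTNTG or ATTTTTTG, searched on the transcript strand with overlaps allowed, stood in 8 of the 10 spliceosomal members, the exceptions being Rnu6 and Rnu6-ps2, in 0 of 46 scaRNAs and in 402 of 3526 small RNA sequences (11.4%). The site of U7, TTTGTCTAG, stood in Rnu7 and in 6 of 3443 small RNA sequences outside the members (0.174%).
Rnu11: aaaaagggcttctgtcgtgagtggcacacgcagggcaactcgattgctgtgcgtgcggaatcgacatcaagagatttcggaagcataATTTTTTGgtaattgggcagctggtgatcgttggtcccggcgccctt
Rnu12: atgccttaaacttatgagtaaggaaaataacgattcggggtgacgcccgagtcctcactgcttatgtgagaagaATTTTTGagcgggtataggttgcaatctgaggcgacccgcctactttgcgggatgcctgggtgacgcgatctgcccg
Rnu7: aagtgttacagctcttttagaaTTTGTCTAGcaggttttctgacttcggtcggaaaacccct

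A pair of scaRNAs with a C box and a D box lies in introns of the autophagy gene Atg16l1, namely Scarna6 (chr1:87784556-87784820, plus) and Gm25395 (chr1:87776938-87777209, plus). Capitals mark the C box (ATGATGA or GTGATGA within the opening 20 bases) and the D box (CTGA within the closing 15 bases). Only the ends were searched, so an H/ACA part inside such an RNA would not be seen. Both boxes stood in 5 of 46 scaRNAs and in 303 of 3526 small RNA sequences (8.59%). Gm22442 (chr11:69350518-69350661, minus) and its relative Gm23386 (chr11:19693155-19693298, minus) follow, with capitals on the 8 bases that differ between them. Both carry ACA exactly 3 bases before the 3′ end, the mark of H/ACA RNAs, as did 21 of 46 scaRNAs and 324 of 3526 small RNA sequences (9.19%).
Scarna6: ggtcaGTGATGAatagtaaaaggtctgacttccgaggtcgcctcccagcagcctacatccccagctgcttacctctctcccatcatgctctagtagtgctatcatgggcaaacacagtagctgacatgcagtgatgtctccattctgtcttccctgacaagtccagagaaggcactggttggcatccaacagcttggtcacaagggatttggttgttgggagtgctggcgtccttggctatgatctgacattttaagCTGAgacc
Gm25395: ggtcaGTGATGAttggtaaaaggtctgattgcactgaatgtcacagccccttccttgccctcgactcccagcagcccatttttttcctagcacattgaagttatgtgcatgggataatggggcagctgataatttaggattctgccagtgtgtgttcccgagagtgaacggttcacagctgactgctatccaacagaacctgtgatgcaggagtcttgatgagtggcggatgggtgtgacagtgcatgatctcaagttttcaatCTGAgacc
Gm22442: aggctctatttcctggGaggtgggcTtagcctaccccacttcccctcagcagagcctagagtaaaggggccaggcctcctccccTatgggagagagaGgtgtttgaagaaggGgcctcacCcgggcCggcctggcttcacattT
Gm23386: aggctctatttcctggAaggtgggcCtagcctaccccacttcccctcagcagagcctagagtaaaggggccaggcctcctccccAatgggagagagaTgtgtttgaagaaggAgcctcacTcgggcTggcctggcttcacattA

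Reads assigned to annotated genes came to 30745756 in replicate 1 and 35977559 in replicate 2 (expected counts). Markers of the labelled tissue were high, as the 6 skeletal muscle markers (Acta1, Ckm, Mylpf, Myh8, Tnnt3 and Myog) summed to 33699 and 40027 TPM. The libraries differed in markers of other tissues. The 3 red cell markers summed to 1219 TPM in replicate 1 and 227 in replicate 2, and the 2 bone markers to 13.75 and 0.54 TPM. The liver markers Alb and Afp summed to 5.84 TPM in replicate 1 and 62.3 TPM in replicate 2. Fewer cells of a type and less RNA per cell cannot be told apart in such bulk libraries. TPM is a share of transcripts scaled by effective length. For member rows longer than 99 nt it was 99 nt below the length, so the values of RNAs not much longer than this rest on few usable positions.

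The members together held a large part of all transcripts by TPM and a small part of the reads. They summed to 422568 TPM in replicate 1 and 409388 TPM in replicate 2 (415978 ± 9320, SD, n = 2), which is 42.3% and 40.9% of the total. By expected counts they took 7.78% of the reads of annotated genes in replicate 1 (exact Clopper-Pearson 95% interval 7.77 to 7.79) and 7.30% in replicate 2 (7.30 to 7.31), and these intervals cover counting error only. TPM recomputed without the members would be 1.73-fold higher for every other gene in replicate 1 and 1.69-fold higher in replicate 2. Of the 72 symbols, 34 reached 1 TPM in both libraries, 10 had some counts below that and 28 were at 0 in both. That limit was passed by 24% of all genes, by 2.26% of the 1374 other snRNA genes and by 4.55% of the 1496 other snoRNA genes. The share among protein coding genes alone was not computed, so the partner gene counts below have no matched background.

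**Figure D1:**
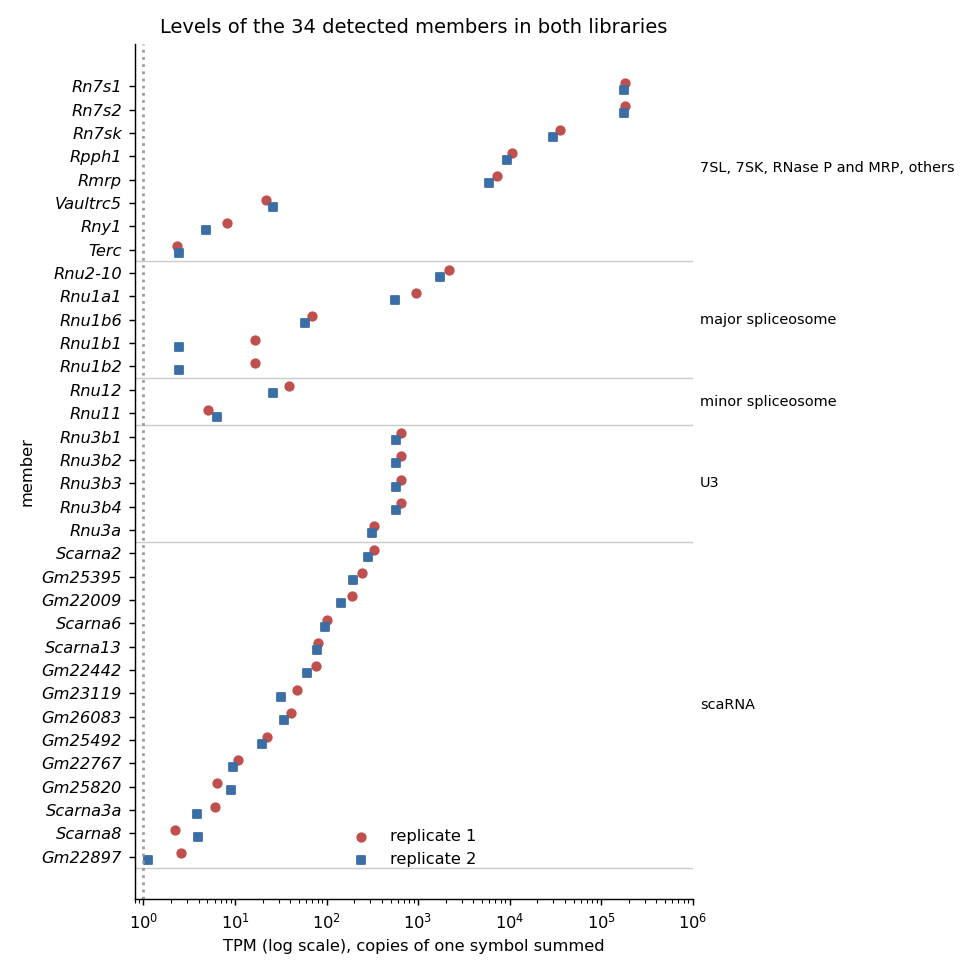
TPM of the 34 detected members in replicate 1 (circles) and replicate 2 (squares) on a log scale, grouped by role, with the limit of 1 TPM dotted. Rn7s1 and Rn7s2 stand far right of all others, and the widest gap between the libraries is that of Rnu1b1 and Rnu1b2, at 16.5 and 2.42 TPM each.

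The RNA of the signal recognition particle outweighed all other members. Rn7s1 and Rn7s2 were each listed with 181057 TPM in replicate 1 and 179212 in replicate 2, and each with 1018801 and 1144107 counts. The annotated copies are identical and had been given equal portions of the reads, so only their sum is a measurement. That sum was 362115 and 358423 TPM, 86.6% ± 1.31 of all member TPM (SD, n = 2), and it took 6.63% and 6.36% of the reads. The libraries were close, with a log2 ratio of 0.01. The 8 protein genes of the particle were all detected, at a median of 27.6 TPM over means that ran from 9.98 TPM for Srp54c, one of 3 closely related copies, to 53.6 TPM for Srp14, the Alu domain protein. Srp68, a protein of the other domain, followed Srp14 at 34.8 TPM.

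7SK, RNase P and RNase MRP followed in that order, and their values did not overlap. Rn7sk had 35220 TPM in replicate 1 and 29608 TPM in replicate 2 (log2 ratio 0.25). Rpph1, the RNase P RNA, had 10551 and 9343 TPM (log2 ratio 0.17). Rmrp, the RNase MRP RNA, had 7297 and 5976 TPM (log2 ratio 0.27) over 2 nested rows that share nearly all their bases. Between those rows the split moved, at 4788 and 2509 TPM in replicate 1 against 3295 and 2682 TPM in replicate 2. Each of these RNAs had less TPM in replicate 2. Rmrp lies opposite Ccdc107, and the sources do not tell whether counting used strand. Rpph1 overlaps Ccnb1ip1 on the same strand without lying inside it. The TPM of both neighbours were low, at 9.91 and 11.1 for Ccdc107 and 0.16 and 0.02 for Ccnb1ip1. The authors' deposited interval for Rn7sk in replicate 1, 34251 to 34531 TPM, lay below its own point value. So did that of Rn7sk in replicate 2 (28865 to 29108 TPM) and those of Rpph1 in both libraries.

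The genes of the proteins that these RNAs work with were nearly all detected, by a limit that 24% of all genes, coding or not, passed. All 7 genes of the 7SK list were detected, led by the kinase gene Cdk9 (19.3 ± 0.311 TPM) and the cyclin T gene Ccnt2 (15.45 and 14.6 TPM), with the capping enzyme Mepce at 11.1 ± 2.11 TPM and the inhibitor gene Hexim1 at 9.52 ± 1.23 TPM. Of 11 RNase P and MRP protein genes, 10 were detected. Rpp25l (14.8 ± 1.15 TPM) and Rpp21 (9.32 ± 0.0283 TPM) led, while Rpp25, a paralog of Rpp25l, had 0.05 and 0.1 TPM.

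Telomerase RNA, the vault RNA and the Y RNAs rested on few counts or none. Terc, the template of telomerase, had 2.32 TPM in replicate 1 and 2.43 TPM in replicate 2 from 21 and 25 counts. Tert, the gene of its reverse transcriptase, had 0.54 and 0.43 TPM from 33 and 45 counts and stayed under 1 TPM. Vaultrc5, the RNA of the vault particle, had 21.9 and 25.8 TPM from 27 and 36 counts, beside the major vault protein gene Mvp at 10.65 ± 0.283 TPM and Parp4 at 5.98 ± 0.0283 TPM. Rny1, which binds the Ro protein, had 8.24 and 4.84 TPM from only 3 and 2 counts. Rny3, at 102 nt, was at 0 in both libraries, and a count of 0 allows up to 35.7 and 31.5 TPM at this length (3 counts per library). Of their protein partners, Ssb, the La protein gene, reached 50.35 ± 4.1 TPM and the Ro protein gene, listed as Trove2, 2.61 ± 0.106 TPM.

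Among the spliceosomal RNAs with a member symbol, U2 was highest by TPM and U1 followed, and most of both lay outside the symbols of the rule. Rnu2-10 had 2169 TPM in replicate 1 and 1730 in replicate 2, and Rnu1a1 had 954 and 564 TPM. Genes of at least 95% identity over at least 90% of both lengths added 12 rows to Rnu2-10 and 22 rows to the 4 U1 members. The U2 family then summed to 19112 and 15194 TPM, and the U1 family to 9724 and 10068 TPM. Rnu2-10 held 11.4% of the U2 family in both libraries, and the U1 members 10.9% and 6.23% of the U1 family. The U1 and U2 families together held 92.5% and 91.4% of the TPM of all 1385 snRNA genes.

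For Rnu1a1 the split of reads between identical copies differed more between the libraries than their sum did. It shares its sequence with 6 other genes. Each of these 7 rows held 1736 counts in replicate 1. In replicate 2, Rnu1a1 and 3 of them held 1164 counts each and the other 3 held 3277 each. The log2 ratio was 0.75 for Rnu1a1 and -0.74 for the other 3, but -0.08 for the sum of the 7 rows, with 12153 and 14487 counts. For Rnu1a1 the authors' deposited interval ran from 21.6 to 1618 TPM in replicate 1. Rnu2-10 and its 3 identical copies held 5587 counts each in replicate 1 and 5056 each in replicate 2, so there every copy moved as the sum did.

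A single U2 copy stood apart. Gm24497 held 3139 counts in replicate 1 and 2.23 counts in replicate 2, the highest log2 ratio (9.75) among the 17581 genes that averaged 10 counts or more. It differs by 1 base from Gm23444 and Gm23472, which held 9974 counts each in replicate 1 and 10197 each in replicate 2. With Gm24497 the U2 family had a log2 ratio of 0.33, and without it 0.23. Gm24497 was named after its values were seen.

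The U1b class made up a small share of U1. Mouse U1b variants are known from embryonic tissues, while U1a prevails in the adult. By closer identity to Rnu1a1 or to a Rnu1b member, 16 rows were U1a-like and 10 were U1b-like. The U1b-like rows held 725 TPM in replicate 1 and 689 TPM in replicate 2, or 7.46% and 6.84% of U1 (7.15% ± 0.439, SD, n = 2). U1a-like rows held 8998 and 9379 TPM. Among the named members, Rnu1b6 had 69.1 and 58.8 TPM, while the identical genes Rnu1b1 and Rnu1b2 each had 16.5 and 2.42 TPM from 30.4 and 5.08 counts. The gap of Rnu1b1 and Rnu1b2 was wider than 2-fold, although the U1b-like class as a whole, with 1346 and 1449 counts, was much closer.

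**Figure D2:**
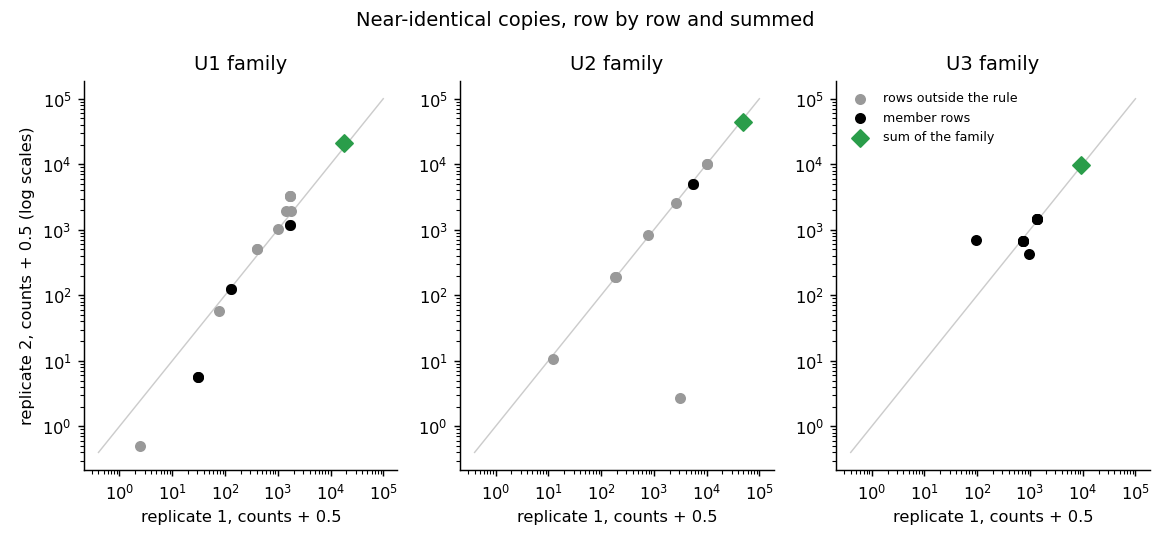
Expected counts plus 0.5 of each row of the U1, U2 and U3 families, replicate 1 on the horizontal and replicate 2 on the vertical log axis, with member rows in black, rows outside the rule in grey and the family sum as a green diamond. Single rows lie up to 3139 against 2.23 counts off the line of equality, while the 3 sums lie close to it.

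U5 and U6 could hardly be seen. Rnu5g (116 nt), Rnu6 and Rnu6-ps2 (107 nt each) were at 0 in both libraries. The 203 rows of the U6 family, most of them outside the rule, together held 1 count in replicate 1 and 1 in replicate 2. At these lengths a count of 0 allows up to 6.30 and 5.56 TPM for Rnu5g and up to 13.4 and 11.8 TPM for Rnu6. These limits cover counting error only. Effective lengths were 17 nt for Rnu5g and 8 nt for Rnu6, and how well the libraries hold such short RNAs was not tested. The levels of U5 and U6 therefore cannot be read from these counts.

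Among the members, the minor spliceosome was measured through U11 and U12 alone. The snRNA genes outside the rule were not searched for U4, U4atac or U6atac. Rnu12 had 39.2 TPM in replicate 1 and 26.04 TPM in replicate 2 from 57 and 43 counts. Rnu11 had 5.10 and 6.30 TPM from 5 and 7 counts. Rnu12 was above Rnu11 in both libraries. Together they made 1.35% of the TPM of the spliceosomal members in replicate 1 and in replicate 2. That share was 0.14% ± 0.018 (SD, n = 2) when the copies outside the rule were added to U1, U2, U5, U6 and U12. U5 and U6 were at or near 0 in either sum, so this is a share of U1, U2, U11 and U12.

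The protein genes of the spliceosome were detected throughout, where 24% of all genes, coding or not, passed the same limit. All 15 Sm and LSm genes passed 1 TPM in both libraries (median 25.0 TPM), led by Snrpb (72.2 ± 6.27 TPM) and Lsm6 (61.3 ± 0.106 TPM). All 11 genes of the U1 and U2 list did so too (median 21.8 TPM), led by Snrnp70, the U1 70K protein, at 89.1 ± 8.75 TPM and Sf3b1, which holds the branch site, at 46.2 ± 5.72 TPM. The 9 genes of the U4/U6.U5 list had a median of 15.6 TPM, with the core protein gene Prpf8 at 37.2 ± 0.375 TPM and the GTPase gene Eftud2 at 26.8 ± 1.7 TPM. The 8 genes of proteins particular to the minor spliceosome had a median of 6.44 TPM, led by Zcrb1 (25.4 ± 2.81 TPM) and Snrnp35 (12.02 ± 0.481 TPM). The 11 genes for snRNA transcription and 3′ end formation had a median of 8.68 TPM, led by the Integrator gene Ints1 (17.0 ± 0.311 TPM) and by Ice1 (16.3 ± 0.453 TPM).

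U7, the RNA that guides cleavage of histone messengers, could not be measured. Rnu7 is 62 nt long and its effective length was listed as 0, as was that of all 2398 genes of up to 99 nt, none of which had a count. Its protein partners were at 13.9 TPM or less. Slbp, the stem-loop binding protein gene, had 13.9 ± 1.33 TPM, Lsm10 5.71 ± 0.757 TPM and Lsm11 2.06 ± 0.247 TPM, while Zfp473 was under 1 TPM at 0.15 and 0.16.

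U3, the nucleolar RNA needed for early cleavage of the rRNA precursor, was steady once rows were summed. The 4 genes Rnu3b1 to Rnu3b4 carry the same pair of annotated sequences, which differ by 1 base in length, and each had 646 TPM in replicate 1 and 581 TPM in replicate 2. They lie in introns of Tex14, which had 0.34 and 0.5 TPM. Rnu3a had 328 and 311 TPM. Its 2 rows, which also differ by 1 base in length, were far apart and in opposite directions, with 959 and 96.4 counts in replicate 1 against 429 and 700 counts in replicate 2, while their sums were 1055 and 1129 counts. All Rnu3 members together had 2914 and 2634 TPM. Rnu73b, a C/D type snoRNA of 71 nt in Rps3a1, had an effective length of 0. Of the C/D particle proteins, Nop58 stood at 31.3 ± 1.82, Nop56 at 26.9 ± 1.51 and the methyltransferase gene Fbl at 24.4 ± 1.16 TPM.

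Of the 46 scaRNAs, 14 were detected, beside 24% of all genes by the same limit. A few made up most of the scaRNA total. The class summed to 1170 TPM in replicate 1 and 981 TPM in replicate 2 (1076 ± 134, SD, n = 2). Scarna2, which in human guides methylation of U2, led with 328 and 286 TPM from 2890 and 2863 counts. Gm25395 had 245 and 196 TPM and Gm22009 188 and 143 TPM. Scarna6 had 102 and 95.8 TPM. The values of these 4 did not overlap. Next came Scarna13 with 81.4 and 79.6 TPM and Gm22442 with 76.2 and 60.9 TPM, both with the H/ACA 3′ end.

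The other detected scaRNAs rested on fewer reads. Gm23119 had 47.1 and 31.5 TPM and Gm26083 40.8 and 34.2 TPM, so their values overlapped. Gm25492 had 22.6 and 19.9 TPM from 19 counts in each library, and Gm22767 10.8 and 9.54 TPM from 20 counts in each. Below a mean of 10 counts stood Gm25820 with 6.38 and 9 TPM, Scarna3a with 6.10 and 3.84 TPM, Scarna8 with 2.23 and 3.94 TPM and Gm22897 with 2.55 and 1.12 TPM. The order among the last 4 is not resolved at 1 to 8 counts. ACA 3 bases before the end stood in 8 of the 14 detected and in 13 of the 32 undetected scaRNAs.

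Another 10 scaRNAs had counts without reaching 1 TPM in both libraries. Gm24289 had 6 counts in replicate 1 and 1 in replicate 2 (5.95 and 0.87 TPM), and Scarna3b had 2.75 and 0 counts (2.45 and 0 TPM). Gm24644 had 0 and 2 counts. Gm22728, Gm22813, Gm23370 and Gm23751 had 1 count in replicate 2 only, and Gm25913, Gm26215 and Gm27653 had 1 count in replicate 1 only. A further 18 had an effective length above 0 and no count in either library. These were Gm22387, Gm22433, Gm23386, Gm23505, Gm23557, Gm24682, Gm24718, Gm25058, Gm25434, Gm25624, Gm25825, Gm26039, Gm26183, Gm26347, Gm26413, Gm26489, Gm27414 and Mir1839. For them a count of 0 allows from 0.38 TPM for Gm27414 to 4.29 TPM for Gm25825 in replicate 1. The last 4, Gm22416, Gm25119, Gm25443 and Scarna17, are 76 to 88 nt long and had an effective length of 0.

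Some scaRNAs with counts had a relative of similar sequence that took none. Gm22442 took 96 and 87 counts while Gm23386, which differs at the 8 bases shown, took none. Scarna13 took 401 and 445 counts while Gm25624, of equal length and 80.5% identity, took none.

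The share of detected rows differed with annotated length. Of member rows under 100 nt, 0 of 6 were detected, from 100 to 119 nt 1 of 5, from 120 to 149 nt 9 of 38, from 150 to 199 nt 8 of 9, from 200 to 299 nt 15 of 17 and from 300 nt 7 of 8. Of other small RNA rows, 0 of 709, 1 of 1043, 62 of 992, 36 of 285, 14 of 261 and 5 of 155 were detected in the same length classes. Rows were not summed by symbol here, so copies that share reads count more than once. The 10 U3 rows, all in the class from 200 to 299 nt, are such copies. Among scaRNAs, 7 of 11 of at least 150 nt and 7 of 35 shorter ones were detected. In the other quantification that the authors deposited, a median of 349 nt was taken off each length in replicate 1 and of 351 nt in replicate 2, and 3 members were longer than that. Scarna2, the longest but 1 at 414 nt, kept 815 and 908 counts there and Terc 12 and 13. Gm27414 had none, and all other members together had no more than a few counts. Rn7s1 and Rn7s2 kept 1.5 and 0.5 counts each.

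**Figure D3:**
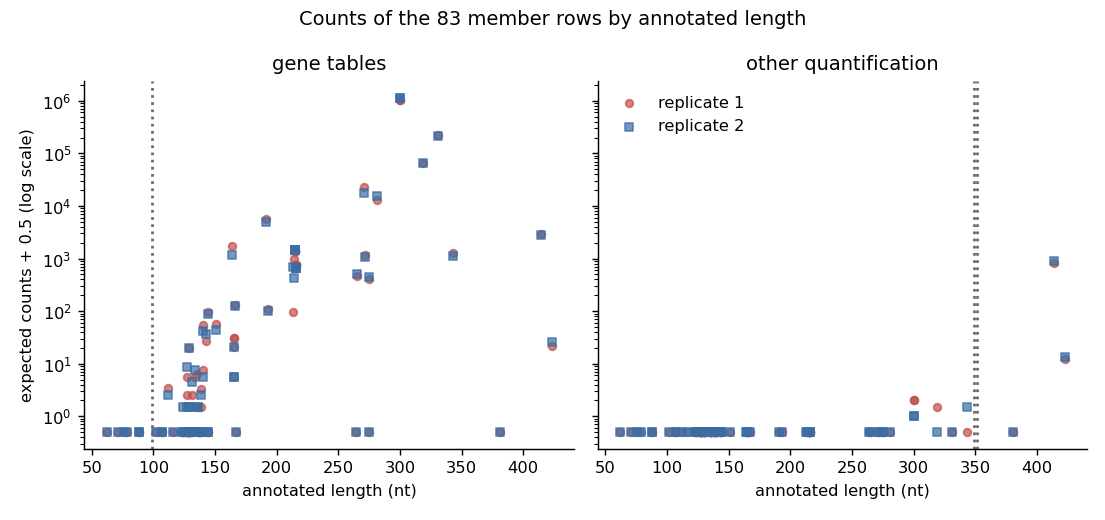
Expected counts plus 0.5 (log scale) of the 83 member rows against annotated length, in the gene tables (left) and in the other quantification (right), with replicate 1 as circles and replicate 2 as squares. Dotted lines mark the lengths of 99 nt (left) and 349 and 351 nt (right) that were taken off to give the effective length. On the left all 6 rows short of the line are at 0, and on the right Scarna2 and Terc alone hold more than 2 counts.

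Several scaRNAs had higher TPM than their host gene. On the same strand, 26 scaRNAs lay within another gene, 24 of them in an intron, and all 26 hosts had at least 1 TPM in both libraries. In 12 pairs the scaRNA was detected, and in 7 of these it had the higher TPM in both libraries. Gm25395 was 26.8-fold and 22.6-fold above Atg16l1, which had 9.15 and 8.65 TPM, and Scarna6 in the same gene was 11.2-fold and 11.1-fold above it. Scarna13 was 68.4-fold and 44.5-fold above Snhg10, a noncoding host with only 13 and 22 counts. Gm22009 was 8.80-fold and 6.48-fold above the importin gene Kpna4 (21.4 and 22.1 TPM).

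The remaining pairs above their host were closer. Gm26083 was 5.56-fold and 5.13-fold above Snhg20, whose exon it overlaps, so reads could have been assigned to either. Gm22442 was 2.36-fold and 2.16-fold above the chromatin remodeller gene Chd3 (32.3 and 28.2 TPM), and Gm25492 1.81-fold and 1.73-fold above Bud23 (12.5 and 11.5 TPM). Gm22767 was slightly below Ppp1r8 (11.4 and 11.8 TPM). Some highly expressed hosts held scaRNAs with few reads. Cop1 had 48.9 and 49.2 TPM while Scarna3a in its intron had 7 and 5 counts, and Chd4 had 63.0 and 61.9 TPM while Gm23751 had 0 and 1 count. By expected counts, which are not scaled for length, only Gm25395 and Scarna13 exceeded their hosts.

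**Figure D4:**
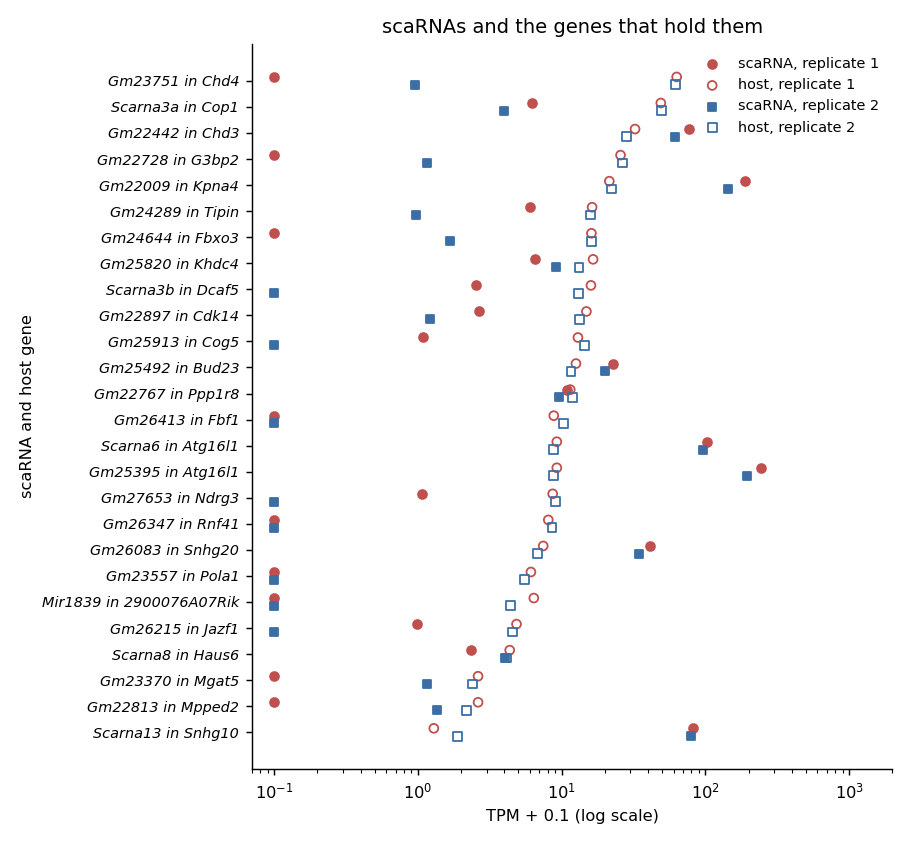
TPM plus 0.1 (log scale) of 26 scaRNAs (filled) and the genes that hold them (open), ordered by host level, with replicate 1 as circles and replicate 2 as squares. Filled symbols lie right of open ones in 7 pairs in both libraries, by the widest margin for Scarna13 in Snhg10 and Gm25395 in Atg16l1.

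Of the hosts with detected scaRNAs not yet named, Khdc4 had 16.4 and 13.1 TPM, Cdk14 14.8 and 13.3 TPM and Haus6 4.25 and 4.03 TPM. Each was above its scaRNA (Gm25820, Gm22897 and Scarna8) in both libraries. Scarna2 and Gm23119 were the detected scaRNAs without a host, and 18 further scaRNAs without one were not detected.

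Genes for Cajal body and scaRNA proteins were low to moderate. Coil, the coilin gene, had 3.62 ± 0.325 TPM and Wrap53, whose protein holds scaRNAs and telomerase RNA in Cajal bodies, 2.85 ± 0.304 TPM. In the Cajal body and SMN list of 10 genes (median 3.5 TPM) the highest were Gemin7 (21.3 ± 0.636 TPM) and Smn1, which loads Sm rings onto snRNAs, at 13.2 ± 1.6 TPM. Of 7 genes of the H/ACA list, 6 were detected, led by Nop10 (19.4 ± 0.495 TPM) and Gar1 (15.75 ± 1.12 TPM), with the pseudouridine synthase gene Dkc1 at 13.4 ± 0.177 TPM and Tert the exception. Over all lists, 106 of 109 partner genes were detected, the others being Rpp25, Tert and Zfp473. The same limit was passed by 24% of all genes, coding or not.

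Between the libraries most members were slightly higher in replicate 1. With scaling by trimmed mean of M values, 28 members had a mean of at least 10 counts, of which 26 were higher and 2 lower in replicate 1. Their median log2 ratio was 0.18, against 0.00 over all 17581 genes, where 8853 were higher and 8728 lower. The 28 are not independent, since the Rnu3b genes, the 7SL genes and the U1b pair share reads. The median was 0.22 for the 10 scaRNAs (from 0.03 to 0.55), 0.15 for 28 other snRNA genes and -0.06 for 50 other snoRNA genes. For 397 other lincRNA genes it was 0.14, and for 14385 other protein coding genes -0.02. Red cell and bone markers were also higher in replicate 1, and liver markers lower. The 6 skeletal muscle markers were all lower in replicate 1, with log2 ratios from -0.34 for Ckm to -0.16 for Tnnt3, and the 3 fibroblast markers had 0.43 (Col1a1), 0.06 (Pdgfra) and -0.08 (Col3a1). The part of these differences in the shift was not tested.

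Only Rnu1b1 and Rnu1b2 were over 2-fold apart, at a log2 ratio of 2.34 each, which is 2 of 28 members against 3.75% of all genes. Both were higher in replicate 1, as were 2.73% of all genes over 2-fold apart in that direction. As these genes are 1 sequence with 60.9 counts in replicate 1 and 10.2 in replicate 2, and other U1b copies stood nearby in sequence, the gap cannot be told apart from the split of reads among copies. After them came Rnu1a1 (0.75), Rnu12 (0.56) and Gm23119 (0.55). At the other end stood Vaultrc5 (-0.22), Terc (-0.07), Rn7s1 and Rn7s2 (0.01 each) and Scarna13 (0.03). No member was over 2-fold lower in replicate 1, against 1.02% of all genes. Where the mean was 100 counts or more, 0 of 19 members and 0.718% of all genes were over 2-fold apart in either direction.

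**Figure D5:**
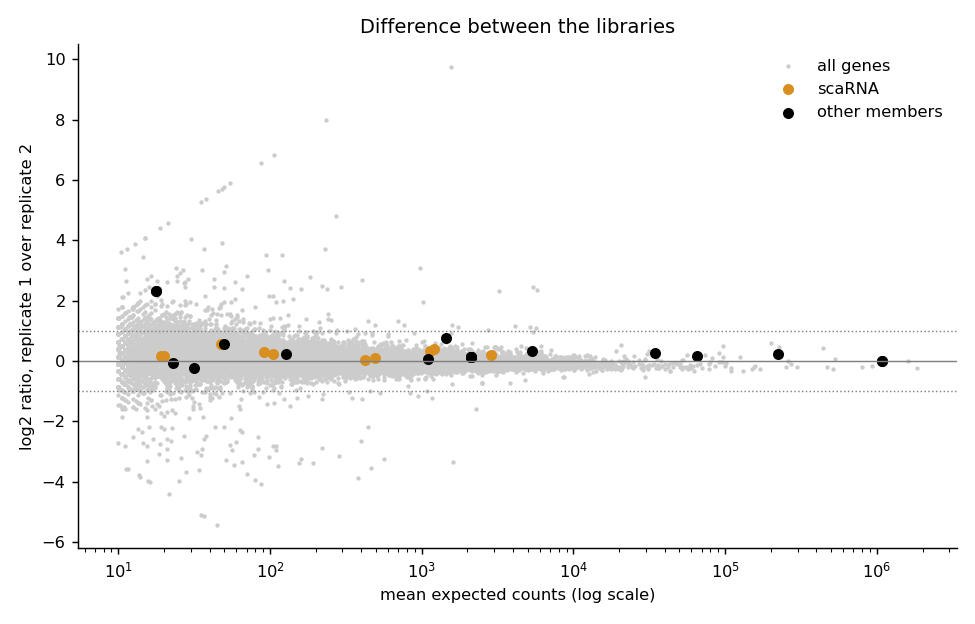
Log2 ratio of replicate 1 over replicate 2 against mean expected counts (log scale) for 17581 genes (grey), the 10 scaRNAs (orange) and the other members (black) with a mean of at least 10 counts. Most members lie a little above 0, and only the overlaid points of Rnu1b1 and Rnu1b2, at 2.34, lie outside the dotted 2-fold lines.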

How the data were processed

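Total RNA-seq of 2 gastrocnemius libraries (1 group) was used. Per the file headers, the authors deposited gene tables with expected counts (estimated, not always whole), TPM, lengths and interval bounds, and transcript tables of a separate quantification with estimated counts and TPM, here summed per gene and called the other quantification. Build mm10 and GENCODE M21 genes are named in the accompanying notes; not given in the sources used here were the aligner, the quantification programs and the strand setting. Effective lengths of members in the gene tables were 99 nt below the lengths, or 0. Symbols, biotypes, coordinates (1-based) and sequences came from GENCODE M21 and matched all member identifiers.

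Rows of one symbol were summed. Detected means at least 1 TPM in both libraries. For ratios, expected counts were rounded, scaled by the trimmed mean of M values (edgeR 4.0.16, limma 3.58.1, R 4.3.3; factors 1.02 and 0.983) and given a prior count of 2, at a mean of at least 10 counts; this step was tested on simulated data. Floors are 3 counts per library. Copies were found with BLAST+ 2.17.0 (at least 95% identity over at least 90% of both lengths) and aligned with Biopython 1.88. The rest was done in Python 3.11.15 with scipy 1.17.1, numpy 2.4.6, matplotlib 3.10.9 and pandas 2.3.3.

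The members, partner lists and tests were chosen with earlier results of these data known. Named are all members, with values per library from a mean of 1 TPM, the 5 highest and 5 lowest ratios, the 2 highest genes of each partner list and those under 1 TPM, and hosts of detected scaRNAs; other genes were named after their values were seen. A sequence withheld here is not reported. Alternatives were scaling by spike-ins, by library size or by DESeq2 1.42.0 size factors, other minimums and prior counts, single rows, full lengths, counts, the other quantification and each library left out. The reads carry no molecular identifiers and are not independent molecules, so intervals and floors cover counting error only.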

Additional observations from a re-analysis of the deposited data

How the results depend on the processing

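The other quantification moved most values, with 2 members detected instead of 34 and a summed level of 395 TPM instead of 415978. Rn7s1, 1 of 2 identical copies that were given equal portions of the reads, had a share of 0.198% there instead of 43.3%. No scaRNA exceeded its host there (0), and by expected counts 2 did instead of 7. The summed level was 457912 TPM without spike-ins and mitochondrial genes and 350929 TPM per full length. The members over 2-fold apart were 2, but 0 at a mean of at least 100 counts (19 members), 4 with no count minimum, 4 with each row on its own and 0 with near-identical copies summed per family. Their median log2 ratio of 0.18 was 0.32 when scaled by spike-ins, where that of all genes was 0.14, and 0.24 with each row on its own. The minor spliceosome share of 1.35% was 0.80% by expected counts, 0.99% per full length and 0.14% with copies summed. Summing copies was chosen after seeing the data. The causes of these moves were not tested, except where an alternative by construction keeps fewer members or ignores length.

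Leaving out a library gave 36 to 38 members detected, 409388 to 422568 TPM in all and 42.8% to 43.8% for Rn7s1 without its identical copy. The minor share was then 1.35%, and 7 scaRNAs were above their hosts. With spike-in scaling 27 members were higher and 1 lower in replicate 1 instead of 26 and 2, as the log2 ratio of Terc was 0.06 instead of -0.07. The other alternatives moved no count by over 1.5 times. No paired analysis was possible because the study holds a single group. Depth limits members under 10 counts. Members under 100 nt, U7 among them, have an effective length of 0 and are not measured.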

Other observations

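Small RNAs of the same biotypes outside the rule were in part as abundant as the members. Scarna10, which GENCODE M21 lists as a snoRNA and which in human guides modification of U5, had 808 TPM in replicate 1 and 695 TPM in replicate 2, above every scaRNA member. Gm24265 and Gm24407, neighbouring snRNA genes of 141 nt on chromosome 5, had 1137 and 1180 TPM, and 1025 and 1071 TPM. They met the identity limits with no member. Rprl3, a ribozyme gene, had 599.5 and 669 TPM. The H/ACA snoRNA genes Snora73a and Snora73b had 382 and 375 TPM, and 503 and 478 TPM.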
